A study of Mus musculus with 12 samples.

Results

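Type I interferon-stimulated genes are the antiviral genes that cells switch on when type I interferon binds its receptor, and 37 of them were followed here through acute lung injury and its treatment in mice. They were taken by gene symbol from the 38349 genes of the deposited table, and all 37 had a row, none of them repeated. Whole lung of wild-type mice was profiled by RNA sequencing in 12 libraries, 3 in each of 4 groups: uninjured lung (Control), lung with acute injury from hypoxia and LPS, which is an endotoxin of bacteria (ALI), and lung given either MSC or tpMSC after that injury. The labels expand neither MSC nor tpMSC and give no strain, age, sex, dose, route or time. They also do not say that the 3 libraries of a group are separate animals, so the p-values measure the spread between these libraries, which may be technical. A gene was called changed at an adjusted p under 0.05 in edgeR's quasi-likelihood test on counts, fitted over all 12 libraries. Levels are given as FPKM, which scales fragments to transcript length and library size, and a log2 fold change is the first named group minus the second.

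Type I interferons bind the receptor IFNAR1 and IFNAR2, which activates the kinases JAK1 and TYK2. These act on STAT2, which with IRF9 is part of the complex ISGF3, and ISGF3 binds the interferon-stimulated response element (ISRE) in the promoters of these genes. Interferon gamma uses its own receptor and acts through a different element (GAS), and many antiviral genes answer to both. LPS is sensed by TLR4, whose adaptor TRIF leads through TBK1 and IRF3 to interferon beta, so antiviral genes are also part of the response to bacterial products.

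The promoters of 6 members picked for display are printed with the core of the response element in capitals, and all 6 hold it. These are some of the members that rose in injury and a near copy that did not pass the test. The core is GAAA, any 2 bases and GAAA again, which reads TTTC, any 2 bases and TTTC where it lies on the other strand. Each window is the 250 bases before the start of the gene in RefSeq on GRCm38.p6, read along the gene's strand. Several members are neighbours in the genome: on GRCm38 (GENCODE M21) Ifit2, Ifit3, Ifit3b and Ifit1 lie in that order between 34550694 and 34650009 on chromosome 19, and Rsad2 and Cmpk2 between 26442746 and 26479837 on chromosome 12. The windows are chr19:34583279-34583528 for Ifit3, chr19:34607707-34607956 for Ifit3b and chr19:34640639-34640888 for Ifit1, all on the plus strand. On the minus strand they are chr4:156200819-156201068 for Isg15, chr12:26456453-26456702 for Rsad2 and chr8:71537473-71537722 for Bst2.
Ifit3: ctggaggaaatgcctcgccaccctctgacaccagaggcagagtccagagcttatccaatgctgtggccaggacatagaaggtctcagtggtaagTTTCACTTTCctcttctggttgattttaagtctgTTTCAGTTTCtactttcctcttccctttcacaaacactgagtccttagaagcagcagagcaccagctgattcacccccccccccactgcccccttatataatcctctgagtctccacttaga
Ifit3b: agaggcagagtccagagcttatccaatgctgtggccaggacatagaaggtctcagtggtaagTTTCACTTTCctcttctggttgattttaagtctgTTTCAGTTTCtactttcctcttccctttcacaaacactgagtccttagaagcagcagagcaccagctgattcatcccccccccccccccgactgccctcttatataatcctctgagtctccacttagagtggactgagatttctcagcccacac
Ifit1: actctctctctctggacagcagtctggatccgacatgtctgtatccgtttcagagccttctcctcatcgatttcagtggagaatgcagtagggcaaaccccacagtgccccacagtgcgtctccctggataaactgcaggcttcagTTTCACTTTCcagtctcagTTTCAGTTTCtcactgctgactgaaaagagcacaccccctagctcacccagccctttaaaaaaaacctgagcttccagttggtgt
Isg15: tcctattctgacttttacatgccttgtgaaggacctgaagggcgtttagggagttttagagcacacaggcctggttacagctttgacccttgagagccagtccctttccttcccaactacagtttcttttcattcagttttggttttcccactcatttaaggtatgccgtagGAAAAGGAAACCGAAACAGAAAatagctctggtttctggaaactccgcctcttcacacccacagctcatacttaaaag
Rsad2: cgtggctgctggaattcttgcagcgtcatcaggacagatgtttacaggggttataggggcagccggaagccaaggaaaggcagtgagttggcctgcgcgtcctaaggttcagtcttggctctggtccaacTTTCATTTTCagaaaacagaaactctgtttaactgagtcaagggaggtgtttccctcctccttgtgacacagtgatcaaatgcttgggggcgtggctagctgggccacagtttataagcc
Bst2: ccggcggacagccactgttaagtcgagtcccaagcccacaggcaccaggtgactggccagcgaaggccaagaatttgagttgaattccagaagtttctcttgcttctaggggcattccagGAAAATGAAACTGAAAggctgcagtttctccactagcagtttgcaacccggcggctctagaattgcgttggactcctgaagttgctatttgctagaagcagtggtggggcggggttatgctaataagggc

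Ifit3 and Ifit3b lie next to each other and share most of this sequence: with a shift of 32 bases, 188 of 218 compared bases were identical (86.2%), and both hold the core element at a pair of places. In Ifit3 the matches began 156 and 122 bases before the start, and in Ifit3b 188 and 154. Isg15 held 3 overlapping matches, beginning 78, 72 and 66 bases before the start. A promoter was found for 28 of the 37 members, and 11 of these 28 held the core on either strand, against 2.98% of the 32841 promoter entries of the mouse table searched over the same length. A longer form, which is the core followed by CT, was held by 6 of 28 members and 0.222% of entries. The interferon gamma element TTCNNNGAA, searched the same way, was held by 5 of 28 members and 7.02% of entries. A member counted as holding an element if any of its start sites matched, while each share is per entry. Ifit2 matched the gamma element at 1 of 2 start sites and Isg20 at 1 of 3, so the units differ. These are matches of letters in a short window and not tests of binding. Ifit3b and Slfn5 hold the core element and were not called in any comparison with all libraries. Raised in ALI without a core match were Rigi, Ifih1, Irf7, Irf9, Ifit2, Oasl1, Oasl2, Herc6, Isg20, Eif2ak2, Ifitm3, Dtx3l and Ifi44. Dhx58, Zbp1, Oas2, Mx1, Mx2, Usp18, Parp9, Parp14 and Rtp4 had no entry.

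Libraries held 53083002 to 70209229 counts and 22915 genes passed the filter on low counts. Of the 37 members 36 passed, and the remaining one, Oas1a, was listed at 0.03 FPKM in Control replicate 1 and at 0 in every other library. Summed FPKM of 8 lung epithelial markers was 13140 to 36680 over the 12 libraries. One library has to be named before the results. tpMSC replicate 3 was above both other tpMSC libraries in 36 of 36 tested members, against 35% of all genes tested. It was at least 2-fold above the higher of them in 23 members, against 4.36% of all genes, and the highest of all 12 libraries in 24 members, against 5.32%. Counts of calls in tpMSC comparisons are therefore given with all 3 libraries and again without that library. It is set apart by its levels of these same members. Calls and p-values without it therefore describe the remaining libraries and are not independent support.

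Injury raised most of these genes. In ALI against Control 27 of 36 members rose (75%), where 20.2% of all genes tested rose, and none fell, where 19.6% of all genes did, also at an unadjusted p under 0.05 or in DESeq2. The median log2 fold change of the members was 0.99, against -0.022 for all genes tested. In 31 members every ALI library lay above every Control library, which held for 23.8% of all genes. The size of the change ran from 3.14 ± 0.51 (log2, SE) for Oas3 to -0.12 ± 0.20 for Slfn5. Because whole lung was measured, more cells that carry these transcripts and more RNA per cell cannot be told apart. Leaving out 1 of the Control or ALI libraries at a time left 21 to 25 members called. In a fit without tpMSC replicate 3, which is in neither group, 30 were called, where 19.9% of all genes tested rose.

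**Figure D1:**
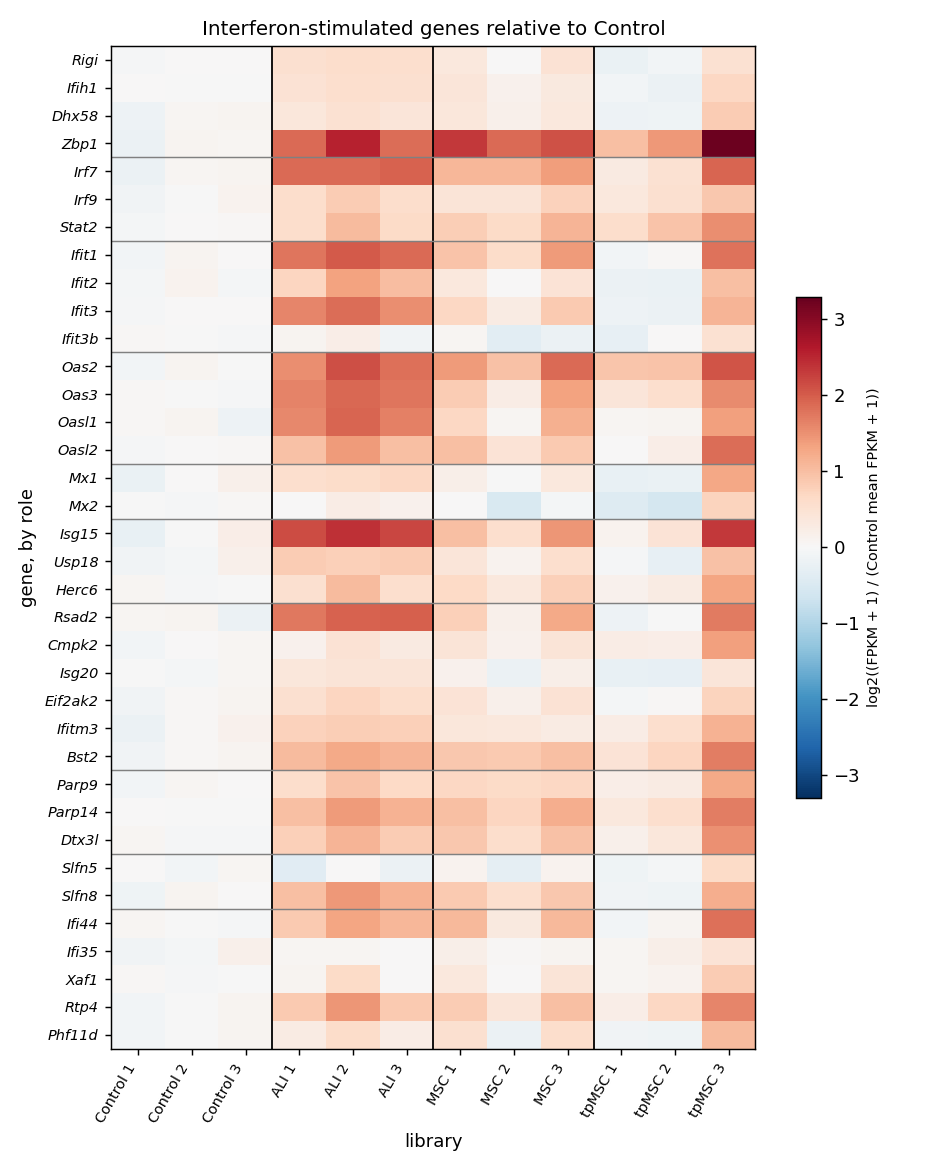
Level of the 36 tested members in each of the 12 libraries, as log2 of FPKM plus 1 relative to the Control mean, with genes grouped by role (grey lines) and libraries by group (black lines). The median over members is 0.73 to 1.05 in the ALI libraries, 0.26 to 0.77 in the MSC libraries, 0.03 and 0.11 in tpMSC replicates 1 and 2, and 1.26 in tpMSC replicate 3.

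Sensors of foreign nucleic acid were the first group by role. Zbp1, which binds Z-form nucleic acid and can trigger necroptosis, was the sensor with the strongest change. Its levels were 1.72, 2.31 and 2.25 FPKM in Control, 10.3, 17.1 and 10.0 in ALI, 14.6, 10.2 and 12.4 in MSC, and 5.19, 7.32 and 28.0 in tpMSC replicates 1, 2 and 3. Every library of the 3 injured groups lay above Control, and the tpMSC libraries lay both below and above the ALI range. Zbp1 rose by 2.63 ± 0.53 (log2, SE) in ALI against Control (edgeR adjusted p = 0.00198). Rigi, which encodes the RNA sensor RIG-I and had the highest mean level of the sensors, was at 9.42, 9.71 and 9.77 FPKM in Control and 14.3, 15.0 and 14.6 in ALI. Its MSC levels were 12.5, 9.67 and 13.9 FPKM and its tpMSC levels 8.08, 8.90 and 14.1. The Control and ALI libraries did not overlap, MSC replicate 2 was within the Control range, and tpMSC replicates 1 and 2 were below it. Rigi rose by 0.66 ± 0.19 (log2, SE) in ALI (edgeR adjusted p = 0.0143). Ifih1, the sensor MDA5 of long double-stranded RNA, rose by 0.67 ± 0.21 (log2, SE; edgeR adjusted p = 0.0255). Dhx58, which encodes LGP2, a regulator of both RNA helicases, had a log2 fold change of 0.60 ± 0.28 and was not called (edgeR adjusted p = 0.114).

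All 3 transcription factors rose in ALI. Irf7, the factor that amplifies interferon alpha production, was at 6.81, 8.41 and 8.60 FPKM in Control and 31.8, 31.4 and 33.6 in ALI. In MSC it was at 18.0, 18.1 and 22.4 FPKM, and in tpMSC at 9.94, 11.6 and 32.6. The Control, MSC and ALI libraries formed 3 separate ranges for Irf7, with tpMSC replicates 1 and 2 between Control and MSC and replicate 3 within the ALI range. Irf7 rose by 2.08 ± 0.36 (log2, SE) in ALI (edgeR adjusted p = 0.000758). Stat2, a subunit of ISGF3, was at 11.3, 12.0 and 12.1 FPKM in Control, 18.1, 25.7 and 18.9 in ALI, 21.3, 18.8 and 27.1 in MSC, and 18.0, 23.7 and 35.8 in tpMSC. All 9 injured libraries lay above Control and their 3 groups overlapped. Stat2 rose by 0.88 ± 0.23 in ALI (log2, SE; edgeR adjusted p = 0.00925) and Irf9, the DNA-binding subunit of ISGF3, by 0.78 ± 0.16 (edgeR adjusted p = 0.00188).

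The IFIT proteins, which bind viral RNA that lacks host cap marks, include Ifit3, the member with the highest ALI level after Ifitm3. Ifit3 was at 31.4, 33.0 and 32.9 FPKM in Control and 102, 119 and 95.2 in ALI. In MSC it was at 52.7, 39.3 and 59.6 FPKM and in tpMSC at 29.0, 28.5 and 71.4. Every treated library lay below every ALI library, and tpMSC replicates 1 and 2 lay below every Control library. Ifit3 rose by 1.76 ± 0.31 (log2, SE) in ALI against Control (edgeR adjusted p = 0.000797). Ifit1 rose by 2.11 ± 0.46 (edgeR adjusted p = 0.00325) and Ifit2 by 1.16 ± 0.31 (edgeR adjusted p = 0.0104). Ifit3b stood apart from its neighbour, with 19.0, 18.5 and 18.2 FPKM in Control, 19.9, 21.7 and 17.0 in ALI, 19.3, 14.4 and 16.0 in MSC, and 15.3, 18.7 and 26.5 in tpMSC. Its Control libraries lay within the ALI range, and its log2 fold change in ALI was 0.13 ± 0.18 (edgeR adjusted p = 0.590). Because the genes are near copies, how the authors' counting divided reads between Ifit3 and Ifit3b is uncertain.

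Proteins of the OAS family sense double-stranded RNA, and the active enzymes among them make an oligoadenylate that switches on the nuclease RNase L. All 4 tested genes of this family rose in ALI. Oas2 was at 1.84, 2.18 and 1.98 FPKM in Control, 7.68, 12.1 and 9.65 in ALI, 6.95, 4.90 and 10.1 in MSC, and 4.63, 4.72 and 11.7 in tpMSC. All injured libraries lay above Control, and the MSC and tpMSC libraries reached into the ALI range. Oas2 rose by 2.35 ± 0.37 (log2, SE; edgeR adjusted p = 0.000389). Oas3, the member with the largest fold, rose by 3.14 ± 0.51 from a Control level of 0.47 ± 0.03 FPKM (SD, n = 3) to 3.99 ± 0.42 in ALI (edgeR adjusted p = 0.000510). Oasl1, which restrains translation of Irf7 in mouse cells, rose by 2.38 ± 0.49 (log2, SE; edgeR adjusted p = 0.00222). Oasl2, the most abundant of the family, was at 5.84, 6.10 and 6.27 FPKM in Control, 12.9, 17.7 and 13.1 in ALI, 13.2, 8.64 and 11.9 in MSC, and 6.10, 7.24 and 24.3 in tpMSC. tpMSC replicate 1 was within the Control range and replicate 3 was above every other library. Oasl2 rose by 1.32 ± 0.42 in ALI (log2, SE; edgeR adjusted p = 0.0258).

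The Mx genes, which encode dynamin-like GTPases that block virus replication, were low and neither was called. Mx1 was at 1.05, 1.39 and 1.66 FPKM in Control, 2.50, 2.63 and 2.78 in ALI, 1.71, 1.33 and 2.02 in MSC, and 0.98, 1.02 and 4.73 in tpMSC. The ALI libraries lay above every Control and MSC library, while tpMSC replicates 1 and 2 were the lowest of all 12 and replicate 3 the highest. The log2 fold change of Mx1 in ALI was 1.00 ± 0.50 (SE; edgeR adjusted p = 0.133), and without tpMSC replicate 3 it was 1.00 and called (edgeR adjusted p = 0.00171). Mx2 had a log2 fold change of 0.26 ± 0.43 (edgeR adjusted p = 0.673). Laboratory mouse strains are known to differ in whether Mx1 is functional, and the strain is not given.

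All 3 genes of the ISG15 system rose in ALI. Isg15, a ubiquitin-like modifier that is attached to other proteins, was at 7.91, 9.32 and 11.3 FPKM in Control and 45.6, 54.6 and 47.8 in ALI. It was at 19.7, 14.4 and 28.0 FPKM in MSC and at 10.4, 13.4 and 51.6 in tpMSC. MSC libraries lay between Control and ALI with no overlap, and tpMSC replicate 3 was within the ALI range. Isg15 rose by 2.44 ± 0.51 (log2, SE; edgeR adjusted p = 0.00252). Usp18, which removes ISG15 and blocks signalling at IFNAR2, rose by 0.98 ± 0.29 (edgeR adjusted p = 0.0175). Herc6, the main ligase for ISG15 in the mouse, rose by 0.94 ± 0.30 (edgeR adjusted p = 0.0276).

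**Figure D2:**
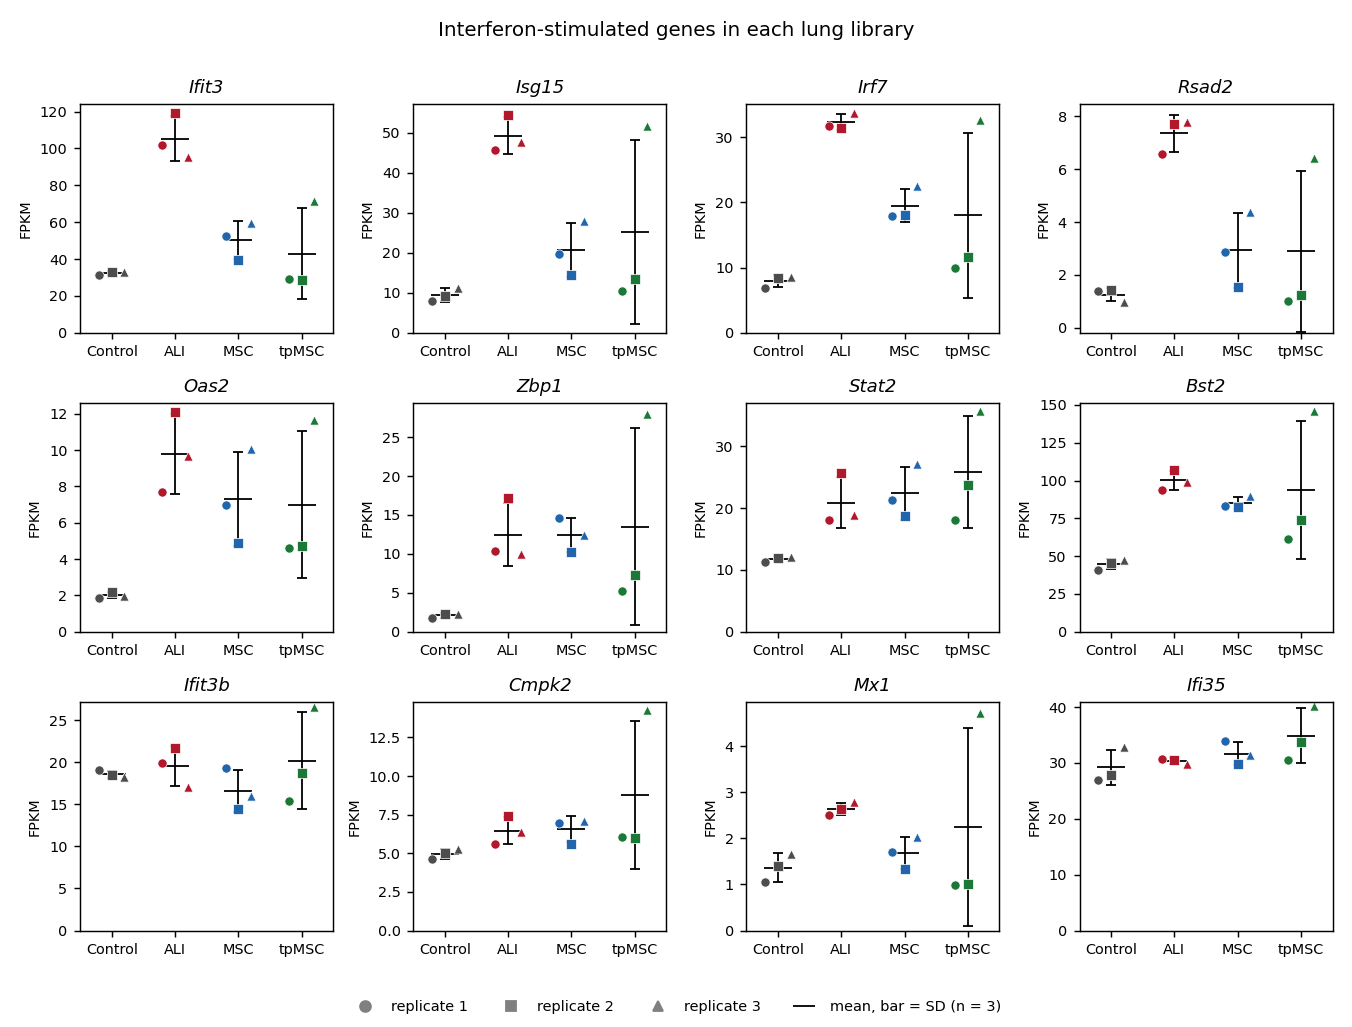
FPKM of 12 members in each library, with the replicate shown by the marker shape and the mean and SD of each group (n = 3) in black; each gene has its own axis, and an SD bar may reach below 0. tpMSC replicate 3 (triangle) lies above the other tpMSC libraries in each gene, and the Control and ALI libraries overlap for Ifit3b and Ifi35.

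Of 6 other direct effectors 5 rose in ALI. Rsad2, which encodes viperin, an enzyme that makes a chain-terminating nucleotide, was at 1.38, 1.42 and 0.97 FPKM in Control, 6.56, 7.72 and 7.79 in ALI, 2.87, 1.55 and 4.39 in MSC, and 1.02, 1.25 and 6.41 in tpMSC. Each treated library was below every ALI library, and tpMSC replicates 1 and 2 lay within the Control range. Rsad2 rose by 2.61 ± 0.62 (log2, SE; edgeR adjusted p = 0.00553). Cmpk2, its neighbour, which encodes a mitochondrial nucleotide kinase and supplies the substrate of viperin, did not pass the test, with a log2 fold change of 0.44 ± 0.28 (edgeR adjusted p = 0.246). Bst2, the surface protein tetherin that holds budding virus, was at 41.0, 45.7 and 47.4 FPKM in Control, 93.9, 107 and 99.3 in ALI, 83.0, 82.6 and 90.0 in MSC, and 61.2, 74.2 and 146 in tpMSC. All injured libraries were above Control, and MSC libraries were below ALI. Bst2 rose by 1.22 ± 0.25 in ALI (log2, SE; edgeR adjusted p = 0.00214). Ifitm3, a membrane protein that blocks virus entry from endosomes and the most abundant member, was at 185, 215 and 232 FPKM in Control, 357, 370 and 366 in ALI, 274, 271 and 256 in MSC, and 250, 310 and 464 in tpMSC. It rose by 0.85 ± 0.18 in ALI (log2, SE; edgeR adjusted p = 0.00274). Eif2ak2, the kinase PKR that halts translation, rose by 0.74 ± 0.20 (edgeR adjusted p = 0.0122), and the exonuclease gene Isg20 rose by 0.50 ± 0.17 (edgeR adjusted p = 0.0387).

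Parp9 and Dtx3l, which encode an ADP-ribosyltransferase and its ubiquitin ligase partner, and Parp14, a larger relative, all rose in ALI. Parp14 was at 10.3, 10.2 and 10.1 FPKM in Control, 21.2, 28.8 and 23.8 in ALI, 21.3, 17.2 and 24.6 in MSC, and 13.2, 15.3 and 35.3 in tpMSC. All injured libraries lay above Control. Parp14 rose by 1.33 ± 0.30 (log2, SE; edgeR adjusted p = 0.00450), Dtx3l by 1.10 ± 0.30 (edgeR adjusted p = 0.0133) and Parp9 by 0.85 ± 0.23 (edgeR adjusted p = 0.0129). Parp9 and Dtx3l overlap on opposite strands, and whether reads were counted by strand is not stated.

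The Schlafen genes, a family linked to control of T cell growth and to antiviral restriction, gave 1 call among 2 genes. Slfn8 was at 2.12, 2.67 and 2.48 FPKM in Control, 5.85, 8.31 and 6.60 in ALI, 5.28, 4.06 and 5.33 in MSC, and 2.14, 2.13 and 6.90 in tpMSC. tpMSC replicates 1 and 2 lay within the Control range and below every MSC library. Slfn8 rose by 1.57 ± 0.38 in ALI (log2, SE; edgeR adjusted p = 0.00659). Slfn5 was at 27.9, 26.1 and 28.8 FPKM in Control and 20.9, 28.1 and 24.0 in ALI, which overlapped, with a log2 fold change of -0.12 ± 0.20 (edgeR adjusted p = 0.679). Reads of the Schlafen genes may be shared among near copies.

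Of 5 other induced genes Rtp4 and Ifi44 rose in ALI. Rtp4, a receptor transporter protein that also regulates interferon responses, was at 10.1, 10.6 and 11.4 FPKM in Control and 20.3, 31.3 and 20.4 in ALI. Its levels were 19.9, 14.4 and 22.2 FPKM in MSC, and 12.6, 17.8 and 35.0 in tpMSC. All injured libraries lay above Control. It rose by 1.22 ± 0.32 (log2, SE; edgeR adjusted p = 0.00993). Ifi44, a cytoplasmic protein induced in virus infection, rose by 1.54 ± 0.54 (edgeR adjusted p = 0.0382). Ifi35, which binds the protein NMI, was at 27.0, 27.9 and 32.8 FPKM in Control and 30.7, 30.5 and 29.8 in ALI, so the ALI libraries lay within the Control range. Its log2 fold change was 0.11 ± 0.11 (edgeR adjusted p = 0.434). Xaf1, a binding partner of the apoptosis inhibitor XIAP, and Phf11d were also not called, with log2 fold changes of 0.37 ± 0.23 (edgeR adjusted p = 0.238) and 0.48 ± 0.32 (edgeR adjusted p = 0.262).

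MSC treatment was compared with untreated injury. Ifit3 was the 1 member of 36 that fell, by 1.11 ± 0.30 on the log2 scale (edgeR adjusted p = 0.0387), where 5.21% of all genes tested fell. In 18 members every MSC library nevertheless lay below every ALI library, against 10.4% of all genes. The median log2 fold change of the members was -0.33, against 0.018 for all genes. Log2 fold changes were -1.37 ± 0.59 for Rsad2 (edgeR adjusted p = 0.175), -1.30 ± 0.49 for Isg15 (edgeR adjusted p = 0.119), -1.30 ± 0.48 for Oas3 (edgeR adjusted p = 0.111) and -0.77 ± 0.35 for Irf7 (edgeR adjusted p = 0.196). Log2 fold changes nearer to 0 were -0.06 ± 0.49 for Zbp1 and 0.05 ± 0.23 for Stat2, neither of them called. Within the MSC group replicate 2 was the lowest library in 34 of 36 members, against 35.1% of all genes. Replicate 3 was the highest in 27, against 32.4%.

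The MSC count depended on single libraries. Ifit3 was not called without any 1 of the 3 ALI libraries, without MSC replicate 1 or without MSC replicate 2, when 0 members were called each time. Without MSC replicate 3, 2 members were called. Over these and the other alternatives its edgeR, DESeq2 or limma adjusted p ran from 0.000589 to 0.111. When tpMSC replicate 3 was left out of the joint fit, 14 members fell in MSC against ALI, where 5.77% of all genes tested fell, with Irf7 at -0.77 (edgeR adjusted p = 0.00200), Isg15 at -1.30 (edgeR adjusted p = 0.00407) and Rsad2 at -1.37 (edgeR adjusted p = 0.0153). The fold changes of these 3 genes were equal to 2 decimals with and without that library. tpMSC libraries are in neither group of this comparison, but they share the estimate of spread, the filter, the scaling and the adjustment, and which of these moved the count was not tested.

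tpMSC treatment gave 2 pictures, depending on replicate 3. With all 3 libraries Ifit3 was the 1 member that fell against ALI, by 1.31 ± 0.30 on the log2 scale (edgeR adjusted p = 0.00914), where 11.5% of all genes tested fell. In 5 members every tpMSC library lay below every ALI library, against 18.3% of all genes. The call of Ifit3 held in each of 12 alternatives, with adjusted p from 2.63e-05 to 0.0402. Without replicate 3, 27 of 36 members fell against ALI, where 11.8% of all genes tested fell, and the median log2 fold change of the members went from -0.23 to -0.80. Replicate 3 was set apart by its high levels of these members, so lower tpMSC levels without it follow from that choice. The p-values without it are descriptive. The changes without that library included -2.72 for Rsad2 (edgeR adjusted p = 0.000511), -2.22 for Oasl1 (edgeR adjusted p = 0.00153), -2.10 for Ifit1 (edgeR adjusted p = 8.70e-05), -2.07 for Isg15 (edgeR adjusted p = 0.000329) and -1.61 for Irf7 (edgeR adjusted p = 2.86e-05). Zbp1 changed direction, from 0.10 ± 0.49 with all libraries (edgeR adjusted p = 0.916) to -1.02 without replicate 3 (edgeR adjusted p = 0.0154). Leaving out tpMSC replicate 1, tpMSC replicate 2 or any ALI library left 1 member called. The MSC and tpMSC comparisons share the 3 ALI libraries.

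**Figure D3:**
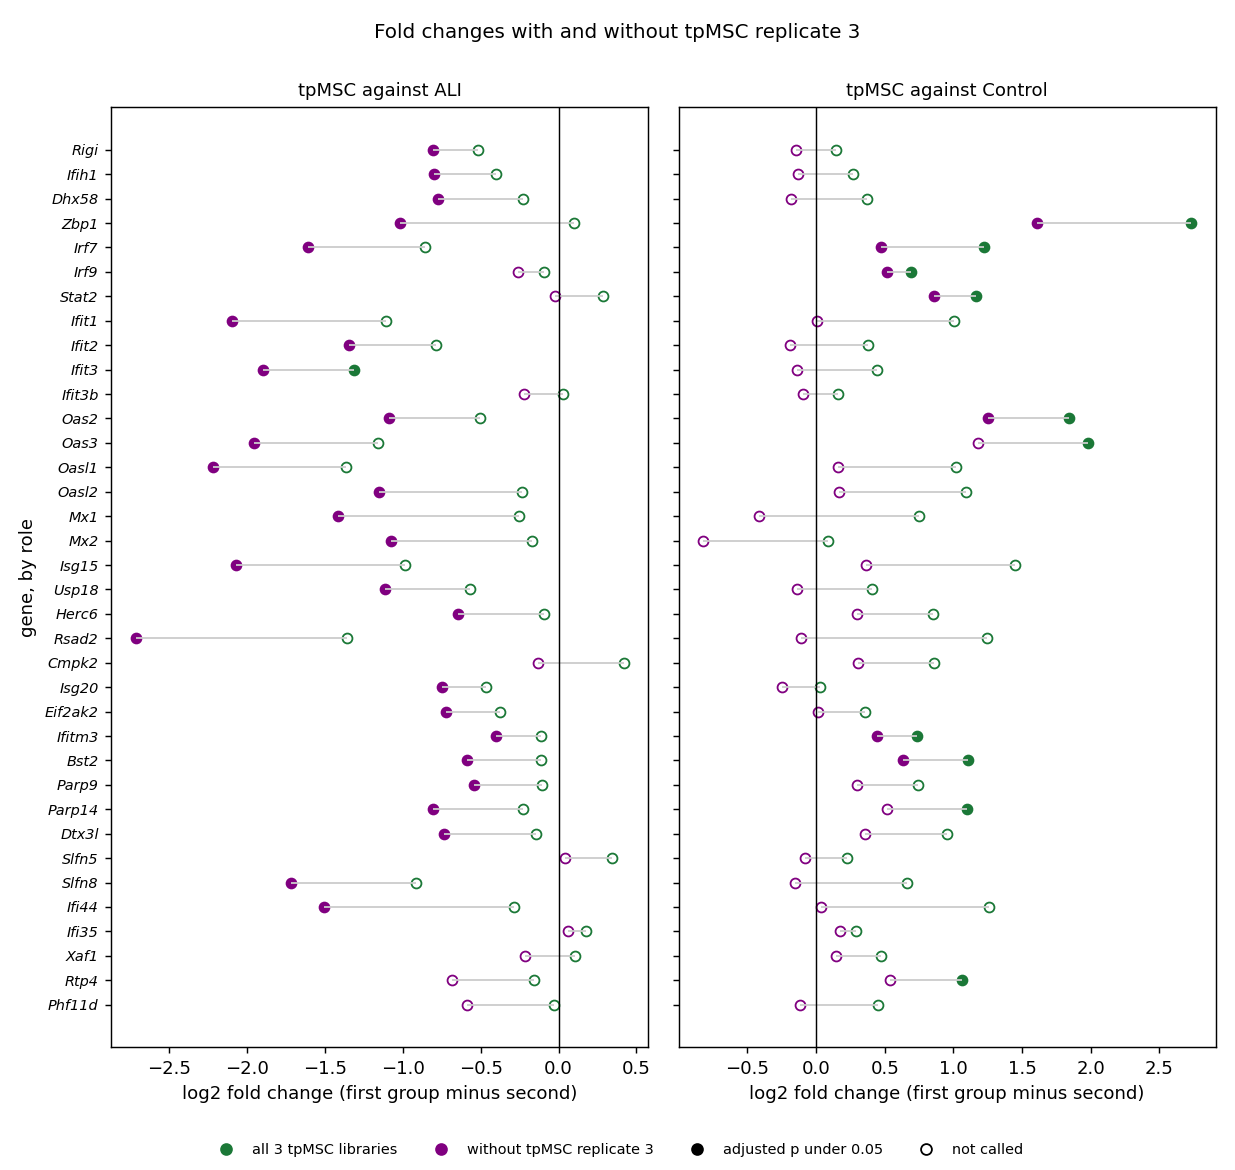
Log2 fold change of each of the 36 tested members in tpMSC against ALI (left) and tpMSC against Control (right), with all 3 tpMSC libraries (green) and without tpMSC replicate 3 (purple); filled points passed an edgeR adjusted p under 0.05. Against ALI 1 point is filled with all libraries and 27 without replicate 3, and against Control 10 and 7.

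The library itself was compared with the others of its group. tpMSC replicate 3 held 5.65 times the mean of replicates 1 and 2 for Rsad2, 4.97 times for Ifi44, 4.73 times for Mx1, 4.48 times for Zbp1 and 4.33 times for Isg15. The smallest ratios were 1.25 for Ifi35 and 1.38 for Irf9. It lay above every ALI library in 24 of 36 members, against 33.7% of all genes tested. Replicates 1 and 2 were both below every ALI library in 30 members, against 24.6% of all genes, and both below every MSC library in 23, against 17.1%. Both were at or below the highest Control library in 17 members, against 60.3% of all genes. Total counts of the 3 libraries were 63147393, 63773398 and 68946006, and the median of all genes differed from Control by -0.009, -0.026 and -0.034 on the log2 scale.

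Markers of other tissues also stood highest in tpMSC replicate 3. The summed FPKM of 8 cardiac muscle genes was 66.7 there, against 12.7 to 40.9 in the other libraries, and 7 of the 8 genes were highest in it. The sum of 8 adipose genes was 49.2, against 1.09 to 34.8, with 5 of 8 genes highest. The cardiac and adipose sums were 40.9 and 34.8 in MSC replicate 1 and 38.1 and 34.7 in Control replicate 3. In MSC replicate 2 they were 34.3 and 17.4. The median of the members relative to the Control mean was 0.67, 0.04 and 0.26 (log2) in these libraries, in that order. None of the genes on either list was at 0 in every library. No blood or lung cell list had its highest sum over the 12 libraries there: neutrophil, alveolar macrophage, plasmacytoid dendritic cell and T cell sums were 457, 346, 18.6 and 23.6 FPKM in replicate 3. Their ranges over all 12 libraries were 143 to 4261, 33.4 to 713, 14.1 to 19.9 and 14.0 to 35.4. Within the tpMSC group the monocyte sum was 123, 124 and 207 FPKM, the T cell sum 17.0, 14.0 and 23.6, and the B cell sum 26.8, 26.3 and 36.9, each highest in replicate 3. Cd14 was the largest part of the monocyte sum, at 52.5, 45.6 and 102 FPKM. Ly6c2, alone of the 8 monocyte genes, was highest in replicate 2, at 16.0, 32.0 and 27.2 FPKM. The lung epithelial sum was 33500, 32940 and 23240 FPKM, the alveolar macrophage sum 565, 501 and 346, and the neutrophil sum 492, 610 and 457, each lowest in replicate 3. Chil3 was the largest part of the alveolar macrophage sum, at 402, 343 and 242 FPKM. S100a9 was the largest part of the neutrophil sum, at 302, 375 and 277. Csf3r was at 36.9, 38.6 and 43.5 FPKM, Cxcr2 at 10.5, 11.8 and 14.4, and Trem1 at 4.02, 3.99 and 5.78. These genes were highest in replicate 3, and the other neutrophil genes were lowest there. Of the epithelial genes Sftpa1 alone was highest there, at 959, 846 and 999. Of the alveolar macrophage genes it was Fabp4 alone, at 3.12, 3.84 and 5.33. The part of these tissues and cells in the member levels was not tested.

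The treated groups were also compared with uninjured lung, to see what remained raised. In MSC against Control 8 of 36 members rose, where 10.7% of all genes tested rose: Zbp1, Irf7, Irf9, Stat2, Oas2, Oas3, Bst2 and Parp14. In tpMSC against Control 10 rose, where 9.1% of all genes tested rose, namely these 8 with Ifitm3 and Rtp4. Every library was above Control in 24 members for MSC, against 18.2% of all genes, and in 15 for tpMSC, against 17.1%. tpMSC replicates 1 and 2 alone were above Control in 15 members as well, against 22% of all genes. Zbp1 had the largest change in both, 2.57 ± 0.53 for MSC (log2, SE; edgeR adjusted p = 0.00651) and 2.73 ± 0.53 for tpMSC (edgeR adjusted p = 0.00651). Oas2 rose by 1.88 ± 0.36 for MSC (edgeR adjusted p = 0.00489) and 1.84 ± 0.36 for tpMSC (edgeR adjusted p = 0.00689), and Stat2 by 0.94 ± 0.23 (edgeR adjusted p = 0.0157) and 1.17 ± 0.23 (edgeR adjusted p = 0.00691). The 3 transcription factors were all raised in both treated groups. Of them Irf7, Irf9 and Stat2 each lost the call for MSC without Control replicate 1, Control replicate 2 or MSC replicate 3. Irf7 also lost it without Control replicate 3. For tpMSC Irf7 lost the call in 6 of 12 alternatives, and Irf9 in 1, without Control replicate 1. None of the 4 IFIT genes was called. Ifit1 was at 1.14 ± 0.45 for MSC, with every MSC library above Control (edgeR adjusted p = 0.101), and at 1.00 ± 0.45 for tpMSC (edgeR adjusted p = 0.155). Ifit3 was at 0.65 ± 0.30 for MSC (edgeR adjusted p = 0.158) and 0.45 ± 0.30 for tpMSC (edgeR adjusted p = 0.353). Without tpMSC replicate 3 Ifit1 and Ifit3 were both called in MSC against Control, at 1.14 (edgeR adjusted p = 0.00173) and 0.65 (edgeR adjusted p = 0.00664). In tpMSC against Control they stood at 0.01 (edgeR adjusted p = 0.990) and -0.14 (edgeR adjusted p = 0.617) in that fit. The difference between the factors and the IFIT genes was not tested. The comparisons share the 3 Control libraries.

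These counts also moved with single libraries. In MSC against Control 2 members remained called without Control replicate 1, Control replicate 2 or MSC replicate 3, 4 without Control replicate 3, and 26 without tpMSC replicate 3, where 11.4% of all genes tested rose. In tpMSC against Control the count was 3 without Control replicate 1, 5 without Control replicate 2, 6 without Control replicate 3, 18 without tpMSC replicate 1 and 13 without tpMSC replicate 2. Without tpMSC replicate 3 it was 7, where 5.66% of all genes tested rose, and the median log2 fold change of the members fell from 0.75 to 0.15. In that fit Zbp1 stood at 1.61 (edgeR adjusted p = 0.00443), Oas2 at 1.26 (edgeR adjusted p = 0.0138) and Stat2 at 0.86 (edgeR adjusted p = 0.0174). Zbp1, Oas2 and Stat2 were called in tpMSC against Control under every alternative tried, and Zbp1 and Oas2 in MSC against Control.

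No difference between the treatments was detected in these genes with all libraries. In tpMSC against MSC edgeR called 0 of 36 members, 0 at an unadjusted p under 0.05, and DESeq2 and limma also called 0. Over all genes tested 0.0305% were called. The smallest member adjusted p was 0.406, for Ifitm3, with a log2 fold change of 0.38 and a 95% interval of -0.01 to 0.77. The intervals were wide for the strongly induced genes, at -1.26 to 1.29 for Rsad2, -0.74 to 1.37 for Isg15 and -0.86 to 0.45 for Ifit3, and for Rsad2 a change of 1 log2 unit in either direction lay within the interval. Without tpMSC replicate 3, 5 members were lower in tpMSC than in MSC, where 1.18% of all genes tested were lower. These were Slfn8 at -1.17 (edgeR adjusted p = 0.0124), Irf7 at -0.84 (edgeR adjusted p = 0.0144), Ifih1 at -0.49 (edgeR adjusted p = 0.0270), Ifit1 at -1.13 (edgeR adjusted p = 0.0288) and Ifit3 at -0.79 (edgeR adjusted p = 0.0331). They too are descriptive, because the library left out was set apart by its high levels of these members.

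Upstream of these genes, the few interferon transcripts with a row were at or near the limit of detection. Of 20 type I and III interferon genes listed, 5 had a row and none passed the filter on low counts. The others had no row under the symbols searched, so they could not be analysed. They include Ifnl2, Ifnl3 and every numbered interferon alpha gene listed. Ifnb1, interferon beta, and Ifne had 0 counts in every library, which allows up to 3 counts, or 0.0427 to 0.0565 CPM, counts scaled to library size. Of 6 receptor and kinase genes 4 rose in ALI, beside 20.2% of all genes tested, and 1 fell, beside 19.6%. Ifnar2, the chain that binds interferon most tightly, was at 20.2, 20.3 and 19.2 FPKM in Control, 42.1, 42.8 and 42.2 in ALI, 26.7, 30.1 and 29.1 in MSC, and 22.6, 22.1 and 30.3 in tpMSC. The ALI libraries lay above all others, and tpMSC replicate 3 was close to MSC replicate 2. Ifnar2 rose by 1.15 in ALI (log2; edgeR adjusted p = 1.5e-05), and fell by 0.61 in MSC (edgeR adjusted p = 0.0056) and by 0.79 in tpMSC (edgeR adjusted p = 0.00056) against ALI. In tpMSC without replicate 3 it fell by 0.95 (edgeR adjusted p = 1.5e-05). Of the 6 genes, 4 fell in MSC against ALI, beside 5.21% of all genes tested, and 5 in tpMSC, beside 11.5%. Without tpMSC replicate 3 the counts were again 4 and 5, beside 5.77% and 11.8%. Ifnar1, Il10rb and Jak1 rose in ALI and fell in both treated groups against ALI, also without that library. Tyk2 fell in ALI by 0.22 (edgeR adjusted p = 0.014).

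Of 16 genes that sense danger and induce interferon, 12 rose in ALI, beside 20.2% of all genes tested, and 2 fell, beside 19.6%. Ikbke, a kinase of IRF3 and IRF7, rose by 2.92 (log2; edgeR adjusted p = 3.1e-05), Myd88, the shared Toll-like receptor adaptor, by 2.07 (edgeR adjusted p = 4.0e-06), and Sting1, the adaptor for cytosolic DNA, by 2.00 (edgeR adjusted p = 3.8e-05). Mavs, the adaptor of RIG-I, fell by 0.62 (edgeR adjusted p = 4.1e-05) and Irf3 by 0.24 (edgeR adjusted p = 0.0081). Against ALI 3 of the 16 fell in MSC, beside 5.21% of all genes tested. In tpMSC 7 fell, beside 11.5%, and 2 rose, beside 11.6%, the latter being Mavs and Irf3. Without tpMSC replicate 3, 10 fell, beside 11.8%, and Mavs and Irf3 rose, beside 12.2%. Of 8 feedback inhibitors 5 rose in ALI, beside 20.2% of all genes tested, and 1 fell, beside 19.6%. Against ALI 3 fell in each treated group, beside 5.21% in MSC and 11.5% in tpMSC. When tpMSC replicate 3 was left out, 4 of these inhibitors fell in each treated group, beside 5.77% of all genes tested in MSC and 11.8% in tpMSC. Socs3, an inhibitor of cytokine receptors, rose by 3.51 (log2; edgeR adjusted p = 6.6e-07) and Ptpn2, a phosphatase of JAK1, by 2.09 (edgeR adjusted p = 8.3e-07). In tpMSC replicate 3 Socs1 stood at 12.2 FPKM, against 3.02 and 3.49 in replicates 1 and 2, and Irf1 at 111, against 46.6 and 54.7.

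**Figure D4:**
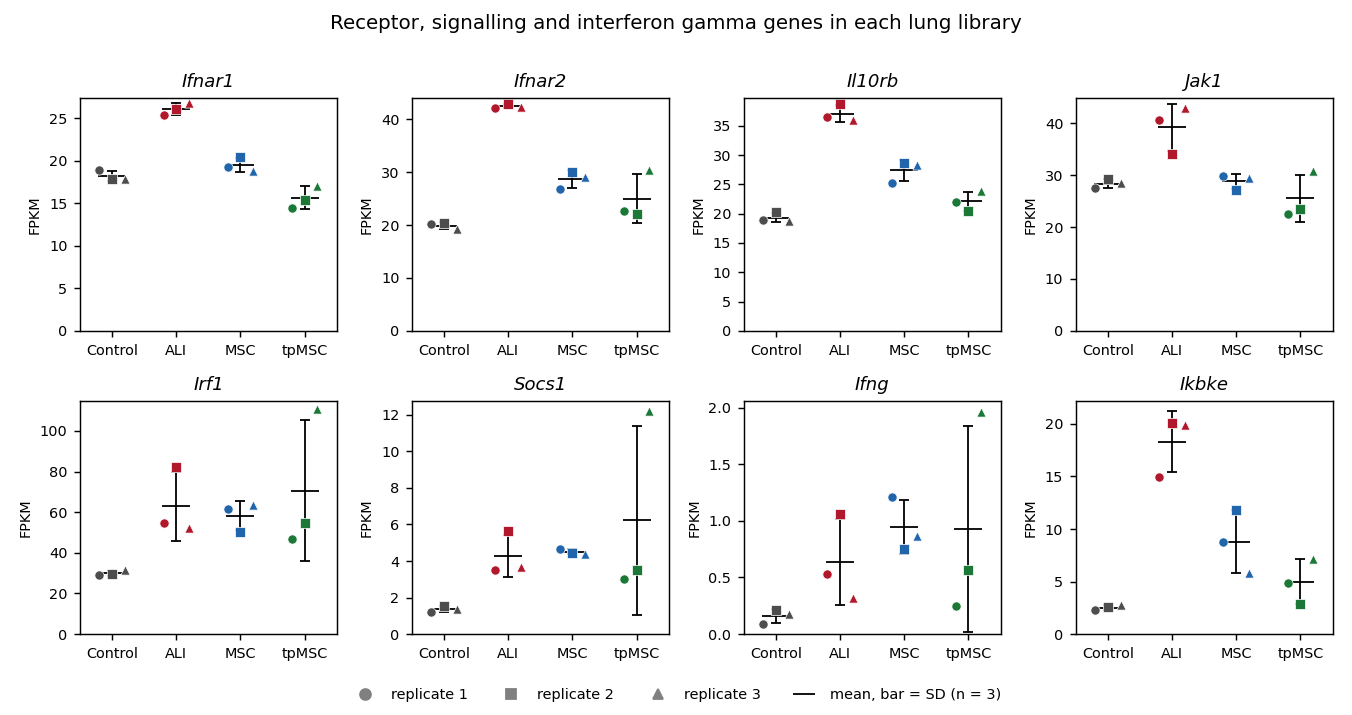
FPKM of 8 receptor, signalling and interferon gamma genes in each library, drawn like the plot of members by library (marker shape for the replicate, mean and SD of n = 3 in black). Ifnar1 and Ifnar2 stay below the ALI range in tpMSC replicate 3, whereas Irf1, Socs1 and Ifng are highest in that library.

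Interferon gamma and its receptor were measured beside them. All 3 genes of this list rose in ALI, beside 20.2% of all genes tested. Ifng was at 0.09, 0.21 and 0.18 FPKM in Control, 0.53, 1.06 and 0.32 in ALI, 1.21, 0.75 and 0.87 in MSC, and 0.25, 0.57 and 1.96 in tpMSC. Every injured library lay above Control, and the highest was tpMSC replicate 3. Ifng rose by 1.96 in ALI (log2; edgeR adjusted p = 0.042). Ifngr2, the signalling chain of the receptor, fell against ALI by 0.54 in MSC (edgeR adjusted p = 0.0072) and by 0.92 in tpMSC (edgeR adjusted p = 0.00015). In tpMSC without replicate 3 it fell by 1.02 (edgeR adjusted p = 8.4e-05).

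Cell markers also differed between the groups. For scale, 20.2% of all genes tested rose and 19.6% fell in ALI against Control. Against ALI 5.21% fell in MSC and 11.5% in tpMSC, and without tpMSC replicate 3 these shares were 5.77% and 11.8%. Summed FPKM of 8 neutrophil markers was 143 to 236 in Control, 3756 to 4261 in ALI, 467 to 983 in MSC and 457 to 610 in tpMSC, and all 8 rose in ALI and fell in both treated groups against ALI, also without tpMSC replicate 3. Monocyte markers summed to 61.7 to 70.5 in Control, 556 to 601 in ALI, 196 to 283 in MSC and 123 to 207 in tpMSC, with 7 of 8 raised in ALI. Cd14 was the largest part of this sum in ALI, at 406, 449 and 436 FPKM, and in both treated groups. Alveolar macrophage markers summed to 254 to 329 in Control, 45.4 to 57.4 in ALI, 33.4 to 713 in MSC and 346 to 565 in tpMSC, with 5 of 8 lower in ALI. Much of this sum was Chil3, at 143, 114 and 93.5 FPKM in Control, 402, 343 and 242 in tpMSC, and 552 in MSC replicate 2. Ear2 went the other way, with a mean of 123 FPKM in Control and 81.3 in tpMSC. None of the 8 was called in tpMSC against Control, where 9.1% of all genes tested rose and 6.79% fell. In the MSC group the library with the lowest member levels, replicate 2, had the highest alveolar macrophage sum, 713 FPKM, and replicate 3, with the highest member levels, the lowest, 33.4. Replicate 2 also had the highest monocyte sum of that group, 283, against 203 and 196 in replicates 1 and 3. In MSC replicates 1, 2 and 3 the T cell sum was 25.9, 16.6 and 33.8 and the B cell sum 72.6, 41.5 and 87.1. Both were lowest in replicate 2 and highest in replicate 3. The neutrophil sum was 467, 705 and 983 in these libraries. All 8 endothelial markers fell in ALI. The plasmacytoid dendritic cell sum, from a cell type known for making interferon alpha, was 18.3 to 19.9 in Control and 18.7 to 19.6 in ALI, with Cox6a2 and Tcf4 its largest parts. The 1 gene of 8 raised was Ccr9, at 0.12, 0.20 and 0.17 FPKM in Control and 0.32, 0.26 and 0.30 in ALI. Siglech, another marker of that cell type, was at 1.01, 0.66 and 0.90 FPKM in Control and 1.43, 0.75 and 1.34 in ALI, which overlapped, and was not called (edgeR adjusted p = 0.362); it was chosen for naming after its values were seen. B cell markers were lower in tpMSC, with 8 of 8 called lower against Control, beside 6.79% of all genes tested. All 8 were also called lower without tpMSC replicate 3, beside 4.02%. None of these 8-gene lists was at 0 in every library for any gene, and their part in the member levels was not tested.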

How the data were processed

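Whole-lung mRNA was selected with oligo(dT) and sequenced as read pairs with a dUTP-marked second strand, per the labels' protocols. HISAT2 2.0.4, cutadapt 1.9, edgeR, DESeq2, StringTie 1.3.4d and GRCm38 appear, with no role, in the submitters' processing notes. How reads were counted, by strand or not, and with which annotation is not given in the sources used here. Per the file headers, the authors deposited for each gene a read count and an FPKM per library. FPKM was used for levels (mean ± SD, n = 3), counts for tests.

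After filterByExpr and TMM scaling, counts were tested with the quasi-likelihood test of edgeR 4.0.16 (R 4.3.3), with 1 mean per group, all 12 libraries in 1 fit and Benjamini-Hochberg adjustment over 22915 genes. Each SE is the size of the log2 fold change over the root of F, and intervals are 95%. The steps were tested on simulated data. Alternatives were DESeq2 size factors (RLE), no filter, DESeq2 1.42.0, fits of only the groups compared, a replicate block, limma 3.58.1 on log2(FPKM + 1), and leaving out each library. Leaving out tpMSC replicate 3 in comparisons that do not use it, and for the other gene lists, was added after seeing the data.

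No pairing of libraries by replicate number was detected: over 18 pairs, correlations of group-centred values ran from -0.108 to 0.104. With 3 libraries a group this cannot exclude a weaker pairing. The members and gene lists were chosen with earlier results of these data known, and 1 signalling gene of the receptor list is not reported here. For each role the text gives library values for the member with the largest mean FPKM and the one with the smallest p in ALI against Control or tpMSC against MSC, with a further member where its direction differed, and any called gene of another list may be named; other members are given by fold. Floors and intervals cover counting error or library spread only.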

Additional observations from a re-analysis of the deposited data

How the results depend on the processing

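The call of most member results did not move: over all alternatives 2486 member results kept their side of the threshold, 122 gained a call, 91 lost one and 1 changed direction with a call. In 154 more the sign of the log2 fold change differed from that with all libraries, with no call on either side, and 41 of all 155 sign changes came without tpMSC replicate 3. Among these, Rsad2 in tpMSC against MSC went from 0.01 to -1.34 and Mx1 in tpMSC against Control from 0.75 to -0.42. The sign change with a call was Zbp1 in tpMSC against ALI, at -1.02 without tpMSC replicate 3, the lowest of its values with 1 library left out, which reached 0.49 without tpMSC replicate 1. Of 27 members raised in ALI against Control, 21 were called in every alternative. Isg20 and Ifi44 each lost that call in 8 of 13 alternatives, Ifih1 in 5, Oasl2 and Herc6 each in 4, and Usp18 in 2. Members called in MSC against ALI numbered 0 with no filter on low counts, 6 with only the compared groups in the fit and 2 with DESeq2, and 0 to 14 when libraries were left out in turn. In tpMSC against ALI they numbered 8 with the replicate block, 4 with DESeq2 and 6 with limma on log2(FPKM + 1), and 1 to 27 when libraries were left out. In tpMSC against MSC the range was 0 to 5. In MSC against Control 22 members were called with only the compared groups in the fit and 2 to 26 when libraries were left out, and in tpMSC against Control 6 with limma and 3 to 18 when libraries were left out. The cause was not tested.

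Over all genes, MSC against ALI gave 1221 calls with only the compared groups in the fit, and 1084 to 2930 when libraries were left out, against 2347. tpMSC against MSC gave 7 calls, 4 with DESeq2 size factors in edgeR, 603 with DESeq2, 0 each with no filter, with the replicate block and with only the compared groups, and 0 to 386 when libraries were left out. The ranges were 3399 to 5669 in tpMSC against ALI, 2465 to 4751 in MSC against Control and 1830 to 2802 in tpMSC against Control. The replicate block left 27 members called in ALI against Control, and 4 of 12 libraries were most alike to one with the same replicate number. With 3 libraries a group, 1 of them far from the others in tpMSC, the number of libraries limits the precision.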
